A study of Mus musculus with 4 samples.

Results

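A-kinase anchoring proteins (AKAPs) are scaffolds that tether protein kinase A (PKA), the kinase switched on by cyclic AMP, to set places in the cell. Each holds the regulatory subunits of PKA through a short amphipathic helix and is targeted to a membrane, organelle or receptor by its other domains. Many also bind phosphatases, phosphodiesterases, other kinases and ion channels, so that cyclic AMP signals act locally. In hippocampal neurons they are best known at the postsynaptic membrane, where they place PKA and calcineurin beside glutamate receptors. The family described here is the 10 genes Akap1, Akap5 to Akap13, as far as the deposited count table names them, out of 28193 genes. The members were chosen by name, and the family was selected because Akap12 was already known to rise in these libraries. The values of the members between conditions are therefore given as a description, with no p-value, and the calls of the fit over all genes are only counted for them beside the share of all genes.

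The study asked how a second bout of sleep deprivation changes the ribosome-bound RNA of CA1 neurons that had been active during a first bout. All mice were male C57BL/6J animals of 3 to 5 months that had been injected in dorsal CA1 with 2 adeno-associated viruses. One expressed ERT2-Cre-ERT2-PEST from a c-Fos promoter, and the other carried a Cre-dependent HA-tagged ribosomal protein Rpl22 with eYFP under the EF1a promoter. Every mouse, control mice included, was sleep deprived for 5 h by gentle handling on day 0 and given 4-hydroxytamoxifen, which lets Cre enter the nucleus, so that cells active during that first bout were tagged. On day 7 the SD group was sleep deprived for 5 h again and the non-sleep-deprived (NSD) group was left undisturbed, and tissue was taken at ZT5. The sample labels give the tissue as dorsal hippocampus and the genotype as cFos-Cre:Ribotag. Each library was made from HA-immunoprecipitated RNA of 5 pooled mice, with 2 libraries per group in 2 labelled batches. With 2 pools per group, no variation between single mice could be measured.

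The 4 libraries held 153511705 to 195910235 assigned reads each, and the member with the fewest reads, Akap7, still had at least 2670 in every library. CPM below are per-million counts after TMM scaling. The tagged cells carried the CA1 pyramidal markers in bulk, with Camk2a, the calcium-dependent kinase of excitatory neurons, at 4090 to 4379 CPM. Markers of other cells were also present: the summed level of 12 astrocyte markers was 3364 to 3992 CPM and that of 12 oligodendrocyte markers 1677 to 2022 CPM. Most of the astrocyte sum came from the glutamate transporter gene Slc1a2, at 2584 to 3147 CPM, and Mbp, which encodes myelin basic protein, gave 880 to 1073 CPM of the oligodendrocyte sum. No marker on either list was at 0 in any library. Over the 10 CA1 pyramidal markers the median difference between SD and NSD was -0.159 on the log2 scale, with none called by edgeR, 5 at an unadjusted p under 0.05, 5 called lower by DESeq2, and 5 lower and 1 higher with the batch as a block. Of all genes, 19.1% had an unadjusted p under 0.05, 5.8% were called lower by DESeq2, and 8.47% were lower and 2.99% higher with the block. The CA1 median was -0.102 without NSD replicate 2 and also without SD replicate 1, and it was -0.198 without SD replicate 2. In bulk RNA, fewer cells of a type and less RNA per cell cannot be told apart.

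The members were expressed at very different levels. The family was chosen by the difference of Akap12 between conditions, and that difference enters its range over all 4 libraries. Levels between genes were compared as CPM per kilobase of merged exon. Akap11, a cytoplasmic and vesicular anchor that also binds glycogen synthase kinase 3, lay at 78.4 and 70.3 CPM per kilobase in NSD and at 76.5 and 80.0 in SD. Akap6, the anchor of the nuclear envelope known for its complexes in muscle and neurons, lay at 75.3 and 61.9 CPM per kilobase in NSD and at 59.5 and 71.5 in SD. The ranges of these 2 genes overlapped, and together they made up 69.6% to 74.4% of the summed per-kilobase level of the 10 members. Akap5, the postsynaptic anchor that holds PKA, protein kinase C and calcineurin at AMPA receptors and L-type calcium channels, came next at 17.9 to 20.7 CPM per kilobase, with no overlap with the genes on either side.

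Below Akap5, each member overlapped its neighbour in the order when the ranges were taken over all 4 libraries. Akap1, which anchors PKA to the outer mitochondrial membrane, had 7.54 to 8.46 CPM per kilobase. Akap10, a mitochondrial and endosomal anchor that binds both type I and type II regulatory subunits, had 6.21 to 7.69. Akap9, the large Golgi and centrosome scaffold, had 5.21 to 7.71. Nuclear Akap8, which binds chromatin and the nuclear matrix, had 3.99 to 5.35 CPM per kilobase. Akap12, a plasma membrane scaffold that binds PKA, protein kinase C and beta-adrenergic receptors, had 3.23 and 3.26 in NSD and 5.03 and 4.93 in SD. It was below Akap8 in both NSD libraries and above Akap8 in both SD libraries. Akap13 had 3.03 to 3.61, and Akap7, a small membrane anchor, had 3.17 to 3.37. The gene chosen for its rise was thus among the least abundant members. Its mean level over the 4 libraries, the SD values included, still exceeded that of 63.6% of 15533 protein-coding genes tested. Akap11 and Akap6 exceeded 98.6% and 98.3% of them. Taking the longest transcript as the length in place of merged exons kept Akap11, Akap6 and Akap5 in the first 3 places and moved Akap12 to the last, at 3.49 to 5.44 CPM per kilobase.

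**Figure D1:**
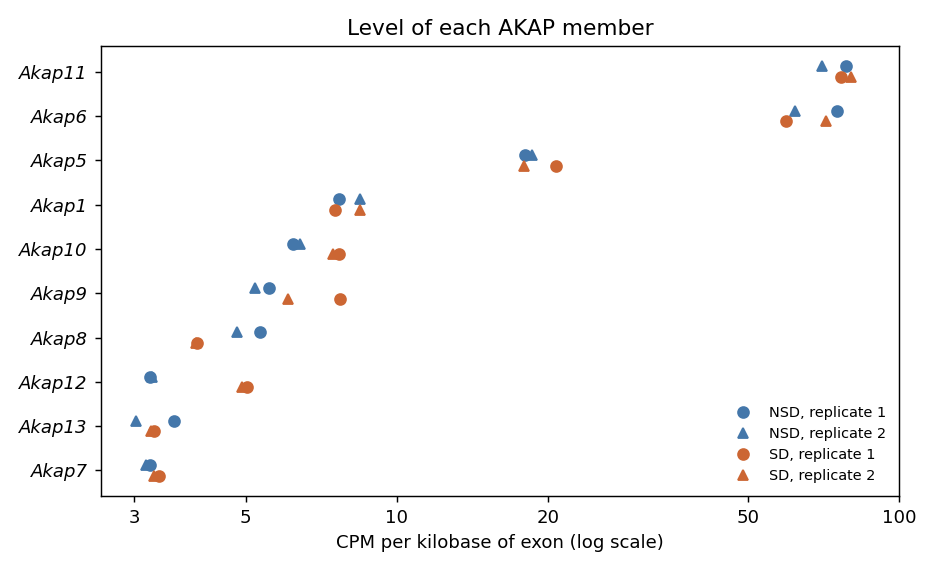
Level of the 10 AKAP members as CPM per kilobase of merged exon on a log axis, with 1 point per library (blue NSD, orange SD, circles replicate 1, triangles replicate 2). Akap11 and Akap6 lie between 59.5 and 80.0, Akap5 between 17.9 and 20.7, and the other members below 8.47.

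Akap12 (chromosome 10, 4216380 to 4309470, plus strand, mm39) rose from 22.5 and 22.8 CPM in NSD to 35.1 and 34.5 CPM in SD. The mean was 22.7 ± 0.184 CPM in NSD and 34.8 ± 0.458 CPM in SD (SD of 2 libraries), a 1.54-fold difference. Both SD libraries lay far above both NSD libraries, and the replicates of a group differed by less than 1 CPM. The fitted log2 fold change was 0.62 ± 0.0716 (edgeR estimate, with an SE derived from the F statistic of its test). Within batch 1 the SD library was 1.56-fold and within batch 2 it was 1.51-fold the NSD library. Among 15533 protein-coding genes, 218 had a higher fold change, and these values are those that chose the family.

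Akap8 (chromosome 17, 32522646 to 32540212, minus strand) was the member with the largest negative fold change. It had 49.8 and 44.8 CPM in NSD and 37.3 and 37.1 CPM in SD, a log2 fold change of -0.35 ± 0.0746. Both SD libraries were below both NSD libraries, in batch 1 at 0.750 and in batch 2 at 0.828 of the NSD level.

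Akap9 and Akap10 were also higher in both SD libraries. Akap9 (chromosome 5, 3978054 to 4131310, plus strand) had 123 and 115 CPM in NSD and 170 and 134 CPM in SD. Its SD libraries were thus further apart than its NSD libraries, and the log2 fold change of 0.35 ± 0.110 became 0.17 without SD replicate 1 and 0.53 without SD replicate 2. Akap10 (chromosome 11, 61762133 to 61821078, minus strand) had 44.6 and 46.2 CPM in NSD and 55.3 and 53.6 CPM in SD, a log2 fold change of 0.26 ± 0.0658. The replicates of Akap10 agreed closely, and leaving out any library kept the value between 0.24 and 0.30.

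The other 6 members had log2 fold changes between -0.07 and 0.08. Akap7 had 17.3 and 17.0 CPM in NSD against 18.0 and 17.6 CPM in SD, which did not overlap but differed by a log2 fold change of only 0.06 ± 0.0818. Akap5 had 146 and 151 CPM in NSD against 168 and 145 in SD, with a log2 fold change of 0.08 ± 0.0855. The groups of Akap5 overlapped, with the higher SD value in replicate 1, and its log2 fold change ran from -0.03 to 0.19 when a library was left out. Akap11 had 875 and 785 CPM in NSD against 854 and 893 in SD, a log2 fold change of 0.07 ± 0.0985 that ran from 0.00 to 0.18 in the same way. Akap6 had 1324 and 1089 CPM in NSD against 1047 and 1257 in SD, a log2 fold change of -0.07 ± 0.134. For Akap6 the 2 batches went opposite ways, at 0.791-fold in batch 1 and 1.15-fold in batch 2, and leaving out a library gave -0.20 to 0.11 on the log2 scale. Akap1 and Akap13 had log2 fold changes of -0.01 ± 0.0819 and -0.03 ± 0.0883, and the NSD and SD libraries of both genes overlapped. Leaving out a library gave -0.08 to 0.07 for Akap1 and -0.15 to 0.14 for Akap13.

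**Figure D2:**
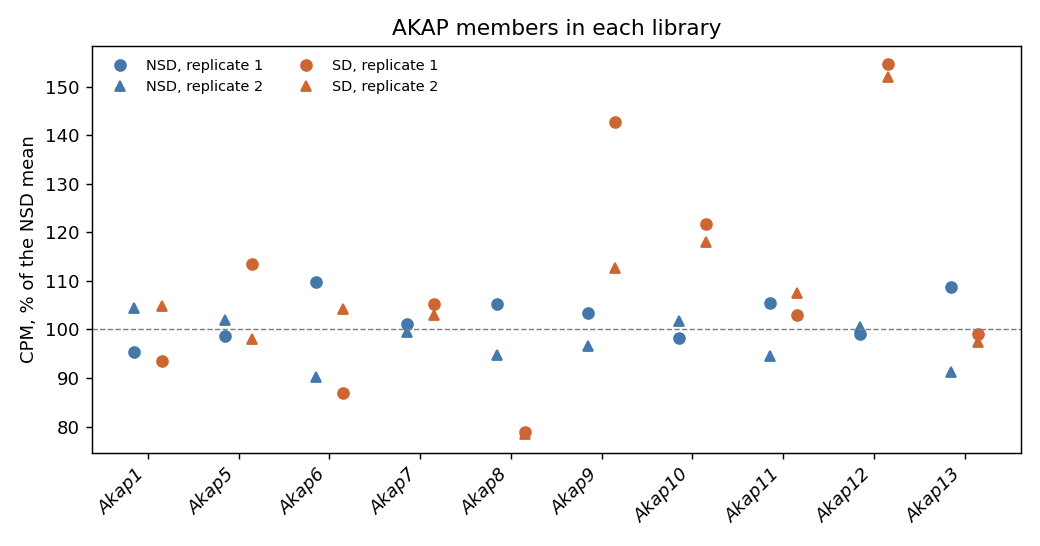
CPM of each AKAP member in each library as a percentage of that gene's mean in the NSD libraries (dashed line at 100%), with colours for groups and symbols for replicates. Both SD libraries of Akap12, Akap9 and Akap10 lie above the NSD libraries and both of Akap8 lie below, while Akap1, Akap5, Akap6, Akap11 and Akap13 overlap.

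**Figure D3:**
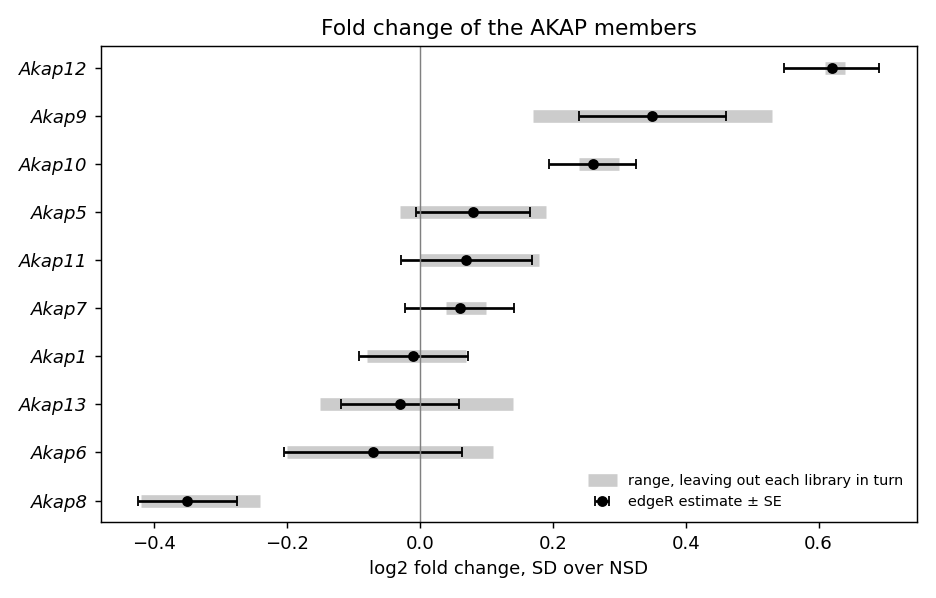
Fitted log2 fold change of SD over NSD for each AKAP member, with bars for the SE and grey bands for the range of values when each of the 4 libraries is left out in turn. Akap12 stays between 0.61 and 0.64 and Akap8 between -0.42 and -0.24, whereas Akap9 spans 0.17 to 0.53.

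A gene was called where its adjusted p was under 0.05 (edgeR) and its fold change over 1.2. Counted over the family, 1 of 10 members was called higher (Akap12), where 0.77% of 22338 genes tested were, and 1 of 10 was called lower (Akap8), where 2.33% were. The call of Akap8 was lost in 4 of the 6 other analyses of all 4 libraries, and without NSD replicate 1 or SD replicate 2. With the batch as a block, 2 members were called higher (Akap9 and Akap12) against 2.99% of all genes, and 1 was called lower (Akap8) against 8.47%. DESeq2 called 3 members higher (Akap9, Akap10 and Akap12) against 3% of genes, and 1 lower (Akap8) against 5.8%. Both SD libraries were above both NSD libraries in 4 members, as in 22% of all genes, and below in 1 member, as in 27.5%. The median log2 fold change of the 10 members was 0.065, beside -0.016 over all genes and 0.018 over protein-coding genes, and it was 0.124 without NSD replicate 1. Because the contrast chose the family, nothing is read from these counts. When filterByExpr of edgeR chose the genes to test, 1 gene in the whole table was called and Akap12 was not, although its log2 fold change stayed between 0.60 and 0.65 in all 10 alternatives.

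Akap8 lies in tandem with its paralog Akap8l, another nuclear protein, on the minus strand of chromosome 17. Akap8l was not used to choose the family, but the gene list that holds it was chosen with earlier results of these data known. It had 47.6 and 35.7 CPM in NSD and 23.2 and 19.0 CPM in SD, so both SD libraries were well below both NSD libraries. It fell to 0.507 of the NSD mean, a log2 fold change of -0.98 ± 0.143 (adjusted p = 0.0328, edgeR quasi-likelihood test, and 2.49e-15 to 0.0628 in the alternatives). The fall was seen in both batches, at 0.489 and 0.531 of the NSD library. Akap8l was called lower in 9 of 10 alternatives and lost its call with filterByExpr.

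The fall of Akap8l and the lower values of Akap8 went along with a lower share of TEC loci, annotated transcripts that still await experimental support. These took 0.273% and 0.210% of counts in NSD and 0.157% and 0.118% in SD, and their median log2 fold change was -1.509 over 1663 loci. Whether they have a part in the values of Akap8 and Akap8l was not tested.

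The annotated genes are 185 bases apart, so that the end of Akap8l and the start of Akap8 share one short intergenic stretch. Its sequence is shown because it is both the upstream region of Akap8 and all that separates the 2 genes that were lower in SD. It holds the 184 bases that lie outside both genes in the deposited annotation and in GENCODE M39. It is taken from chr17:32540213-32540396 of GRCm39, read on the minus strand from the Akap8l end to the Akap8 end, and capitals mark matches to GGGCGG, the GC box bound by Sp1-type factors, on either strand.

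Akap8l to Akap8: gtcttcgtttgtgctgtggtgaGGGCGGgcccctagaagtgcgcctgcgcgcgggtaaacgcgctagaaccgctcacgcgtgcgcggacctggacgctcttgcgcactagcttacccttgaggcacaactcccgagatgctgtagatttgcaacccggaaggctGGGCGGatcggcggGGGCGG

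The stretch had a G and C content of 65.2% and held 3 matches to GGGCGG. In RefSeq promoter windows of GRCm38.p6, which cover the start of each gene and the bases just before it, 35.7% of 32851 windows held at least 1 match to these letters on either strand. Windows were matched for 9 members (Akap12 was not among them), 13 windows in all, and 10 of the 13 held a match. The cyclic AMP response element TGACGTCA, the site of the transcription factor CREB downstream of PKA, was in 1.79% of all windows and in none of the 13. Its first 5 letters, TGACG, were in 20.8% of all windows and among the members in a window of Akap11, with 3 matches. A match is a run of letters and was not tested as a site.

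**Figure D4:**
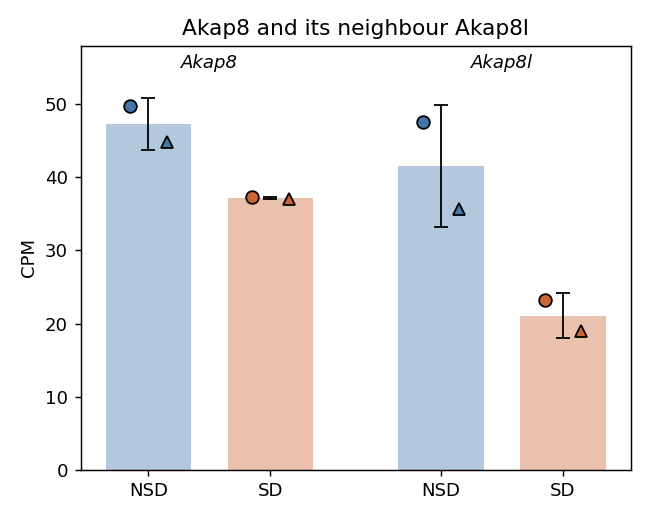
CPM of Akap8 and Akap8l in the NSD and SD libraries, with bars at the mean of 2 libraries, error bars for the standard deviation, and points for replicate 1 (circle) and replicate 2 (triangle). The SD libraries of Akap8l, at 23.2 and 19.0, lie below its NSD libraries at 47.6 and 35.7, and those of Akap8, at 37.3 and 37.1, lie below 49.8 and 44.8.

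Beyond Akap8l, 24 further rows of a list of other PKA anchoring proteins were tested, 3 of them for the Pakap locus. Cbfa2t3, a transcriptional corepressor that is also described as a Golgi anchor of PKA, was the only one called higher. It had 50.6 and 50.8 CPM in NSD and 64.1 and 65.1 CPM in SD, a log2 fold change of 0.35 ± 0.0634 (adjusted p = 0.0385, edgeR, and 9.34e-05 to 0.0628 in the alternatives). Its replicates were close in both groups, but the call held in 6 of 10 alternatives only and was lost, among others, without NSD replicate 1. In all, 1 of 25 rows was called higher and 1 lower, where 0.77% and 2.33% of all genes were, and 8 had an unadjusted p under 0.05, beside 19.1% of all genes. DESeq2 called 4 higher (Cbfa2t3, Gpr161, Pcnt and Gskip), beside 3% of all genes, and the block 3 (Cbfa2t3, Gpr161 and Pcnt), beside 2.99%. Both called Akap8l lower. The median log2 fold change was 0.084 and lay between 0.054 without NSD replicate 2 and 0.167 without NSD replicate 1.

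Gpr161, an orphan receptor of the primary cilium that binds PKA, had 258 and 322 CPM in NSD and 397 and 415 CPM in SD. Its log2 fold change of 0.49 ± 0.110 missed the threshold (adjusted p = 0.0554, edgeR) and passed it with the batch as a block (adjusted p = 0.000915), with 5.22e-05 to 0.119 over all alternatives. Pcnt, which encodes the centrosomal scaffold pericentrin, had 71.2 and 60.6 CPM in NSD and 84.5 and 76.5 CPM in SD, a log2 fold change of 0.29 ± 0.0913 that was 0.18 without NSD replicate 2 and 0.44 without NSD replicate 1. Among edgeR fits of all 4 libraries Pcnt was called only with the block (adjusted p = 0.125 without it and 0.00388 with it, and up to 0.313 in the alternatives). The dendritic microtubule protein Map2 had 2188 and 2375 CPM in NSD against 2424 and 2529 in SD, a log2 fold change of 0.12 ± 0.112. Sphkap, which prefers type I regulatory subunits, had 467 and 441 CPM in NSD against 379 and 417 in SD, a log2 fold change of -0.19 ± 0.0886 (adjusted p = 0.297, edgeR) that was -0.12 without NSD replicate 1 or SD replicate 1.

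The subunits and inhibitors of PKA itself gave no call in the edgeR fit. Of 9 genes, 3 had an unadjusted p under 0.05, DESeq2 called 2 higher, and the block called 1 higher, where 19.1%, 3% and 2.99% of all genes met the same rules. All 9 fitted log2 fold changes were above 0, where 10533 of 22338 genes tested and 8434 of 15551 protein-coding genes were. They had a median of 0.101 beside 0.018 over protein-coding genes and a range of 0.04 to 0.28. The lowest, that of Pkig, ran from -0.05 to 0.13 when a library was left out. Prkar2a, a type II regulatory subunit of the kind most AKAPs bind, had 68.0 and 71.7 CPM in NSD and 82.3 and 87.0 in SD. Its groups did not overlap, and its log2 fold change was 0.28 ± 0.0678 (adjusted p = 0.0665, edgeR, 0.00415 with the block, and 0.00399 to 0.231 over the alternatives). Pkia, the heat-stable inhibitor of the catalytic subunit, had 57.8 and 60.3 CPM in NSD and 70.2 and 71.3 in SD, a log2 fold change of 0.26 ± 0.0647 (adjusted p = 0.0689, edgeR, and 0.00514 to 0.201 over the alternatives).

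The remaining subunits differed less. The catalytic subunits Prkaca and Prkacb had log2 fold changes of 0.06 ± 0.0771 and 0.23 ± 0.0875, and the type I regulatory subunits Prkar1a and Prkar1b had 0.12 ± 0.0960 and 0.07 ± 0.0842. The second type II subunit, Prkar2b, had 0.06 ± 0.0793. Per kilobase of exon the type I subunits were the more abundant, at 59.9 to 69.7 CPM for Prkar1a and 50.7 to 56.0 for Prkar1b, against 6.31 to 8.07 for Prkar2a and 3.34 to 3.56 for Prkar2b. The ranges of the type I and type II subunits did not overlap over the 4 libraries.

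Proteins that anchors hold beside PKA formed a further list of 55 genes. None was called by edgeR, and DESeq2 called 5 higher, beside 3% of all genes. An unadjusted p under 0.05 was found for 7, beside 19.1% of all genes and 2273 of 15551 protein-coding genes. With the batch as a block 4 were called higher, beside 2.99% of all genes, and none lower, beside 8.47%. The median log2 fold change was 0.033, and it was 0.015 without SD replicate 2 and 0.052 without NSD replicate 2. The 4 called with the block were Adcy1 and Adcy5, which encode adenylyl cyclases that make cyclic AMP, Dlg1, which encodes the synaptic scaffold SAP97, and Vapb, which encodes a tether of the endoplasmic reticulum. DESeq2 called the same 4 and Gsk3b, a glycogen synthase kinase 3 gene. Gsk3b had 476 and 485 CPM in NSD and 615 and 524 CPM in SD (adjusted p = 0.0318, DESeq2, and 0.229, edgeR). Its log2 fold change of 0.24 ± 0.0998 ran from 0.13 to 0.37 when a library was left out. Adcy1, the calcium-stimulated cyclase abundant in hippocampus, had 0.34 ± 0.112 on the log2 scale (adjusted p = 0.140, edgeR, and 0.0184 with the block, with 1.06e-05 to 0.495 over the alternatives). Dlg1 came nearest to the threshold without the block, at 0.30 ± 0.0669 (adjusted p = 0.0521, edgeR, 0.00410 with the block, and 0.000389 to 0.117 over the alternatives). Adcy5 and Vapb both had 0.27, with SEs of 0.0763 and 0.0729 (adjusted p = 0.0936 and 0.0827, edgeR, and 0.0151 and 0.0113 with the block).

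**Figure D5:**
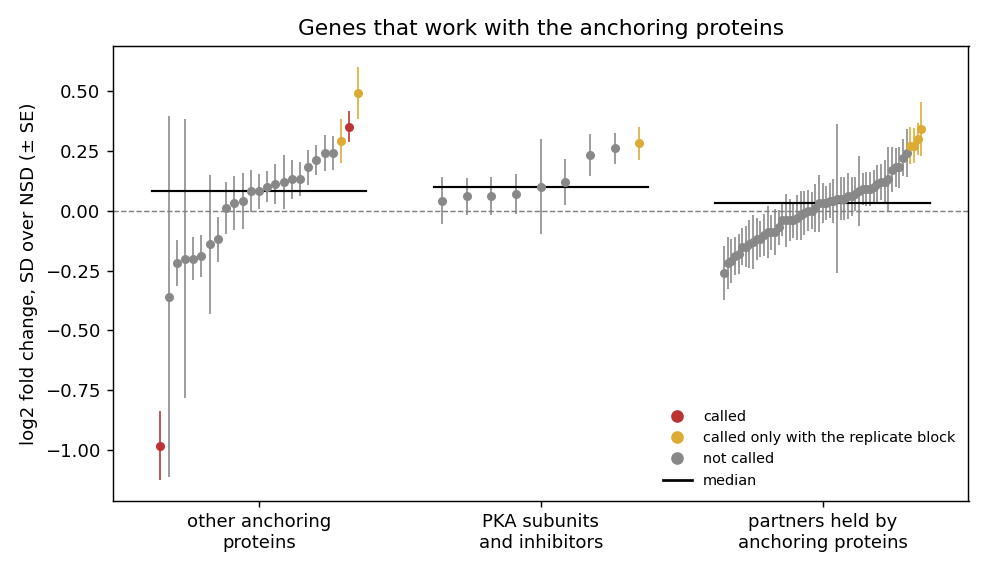
Fitted log2 fold change of SD over NSD (points, bars for the SE) for 25 rows of other anchoring proteins, 9 PKA subunits and inhibitors, and 55 partners held by anchoring proteins, ordered by value within each list, with a line at the median. Akap8l at -0.98 and Cbfa2t3 at 0.35 are the genes called, and 7 more are called with the replicate block. All 9 PKA genes lie above 0, as did 8434 of 15551 protein-coding genes tested.

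The genes whose pattern over the 4 libraries was most like that of Akap12 were sought among 8634 protein-coding genes with a mean of at least 10 CPM, by the Euclidean distance of their centred log2 CPM. The nearest was Spry4, an inhibitor of receptor tyrosine kinase signalling, at a distance of 0.0127, with 31.0 CPM in both NSD libraries and 48.3 and 47.3 CPM in SD. Next were the pseudokinase gene Trib1 at 0.0501 and Sik1, a salt-inducible kinase that is itself a substrate of PKA, at 0.0802. Sik1 had 21.8 and 21.7 CPM in NSD and 31.7 and 33.3 CPM in SD, a range close to that of Akap12. Zdbf2 and Strbp followed at 0.101 and 0.112, with 1.45-fold and 1.44-fold higher means in SD. These genes were picked for likeness over 4 libraries, which does not test a relation.

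Akap12 is also made by cells of vessels and meninges, so their markers are given beside it. All 16 endothelial markers had negative log2 fold changes, with a median of -0.595 that was -0.298 without SD replicate 2, -0.364 without NSD replicate 2 and -0.957 without SD replicate 1, and their summed level was 92.8 and 121 CPM in NSD against 83.8 and 63.8 CPM in SD. None was called by edgeR, 8 had an unadjusted p under 0.05, DESeq2 called 5 lower and the block called 7 lower, where 19.1%, 5.8% and 8.47% of all genes met these rules. The 12 mural cell markers had a median of -0.281, which was -0.098 without SD replicate 2 and -0.381 without NSD replicate 2, and summed to 103 and 93.6 CPM in NSD and 93.4 and 79.8 CPM in SD. None of them was called by edgeR or DESeq2, 1 had an unadjusted p under 0.05 and 1 was called lower with the block. The 10 meningeal fibroblast markers had a median of 0.113, which was 0.031 without NSD replicate 2 and 0.311 without NSD replicate 1, and summed to 89.2 and 81.9 CPM in NSD and 95.9 and 88.8 CPM in SD, with none called by edgeR, 3 at an unadjusted p under 0.05, 1 called higher by DESeq2 and 2 by the block, beside 3% and 2.99% of all genes. No marker of these 3 lists was at 0 in any library. The part of these cell types in the values of Akap12 was not tested.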

How the data were processed

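Ribosome-bound RNA of 4 libraries was sequenced on an Element Aviti24 after ribosomal RNA depletion with a stranded kit. The authors aligned the reads with STAR to mm39 and assigned them to Ensembl genes with the expectation-maximization model of Partek. The authors deposited these as estimated counts, which need not be whole numbers (55.6% of genes had a value that was not). Whether strand was used in counting is not given in the sources used here. The table holds genes with a total of at least 10. Groups and batches came from the sample labels.

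Counts were rounded and analysed in R 4.3.3 with edgeR 4.0.16 (limma 3.58.1): TMM scaling, a minimum above 5 counts in each of the libraries, glmQLFit and glmQLFTest, Benjamini-Hochberg adjustment over 22338 genes, with calls made at an adjusted p under 0.05 where the fold change also exceeded 1.2. The methods were tested on simulated data. Alternatives were DESeq2 1.42.0, its size factors in edgeR, no count filter, filterByExpr, protein-coding genes only, the replicate block and each library left out. The labels tie replicate numbers to batches, so the numbers pair the libraries, and across genes the correlation between libraries of one number, after subtracting group means, was 0.178. Exon lengths came from GENCODE M39 on the same build, matched by gene ID (27962 of 28193). The SE of a log2 fold change was its absolute value divided by the square root of the F statistic of the edgeR test. P-values measure the spread between pools.

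The members and gene lists were chosen with earlier results of these data known. Named were all members, the PKA subunits, listed genes called in the fit, called loci overlapping a member, and the 5 genes nearest to Akap12. Pkia, Map2, Sphkap and the listed genes called only with the block or DESeq2 were named after their values were seen. Akap2 and Palm2 entered only as the 3 rows named Pakap, and Akap4 and Akap17a were not analysed here.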

Additional observations from a re-analysis of the deposited data

How the results depend on the processing

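The replicate block and DESeq2 raised the number of calls. The wider gene filters and the restriction to protein-coding genes lowered it. Of the protein-coding genes, the edgeR fit over all genes had called 148 higher and 84 lower. Genes called higher and lower, 172 and 520 in the edgeR fit, were 671 and 1296 with DESeq2, 668 and 1891 with the replicate block, 50 and 80 with no count filter, 1 and 0 with filterByExpr, where 4410 genes had an unadjusted p under 0.05, and 51 and 39 with protein-coding genes only. Leaving out 1 library gave 124 to 308 higher and 78 to 1955 lower, the extremes for lower calls being without NSD replicate 1 and without SD replicate 1. With DESeq2 size factors the counts were 229 and 457, and the share of calls that were higher moved from 24.9% to 33.4%. AKAP members called higher (1 of 10) were 3 with DESeq2, 2 with the replicate block and 0 with filterByExpr, and 1 to 2 when a library was left out, the 2 without SD replicate 2. Members called lower (1 of 10) were 0 with DESeq2 size factors, no count filter, filterByExpr and protein-coding genes only, and 0 to 1 when a library was left out, with 0 without NSD replicate 1 or SD replicate 2. Listed genes called higher (1 of 89) were 11 with DESeq2, 3 with DESeq2 size factors, 8 with the replicate block and 0 with no count filter, filterByExpr or protein-coding genes only, and 1 to 3 when a library was left out. Listed genes called lower (1 of 89) were 0 with filterByExpr and 1 to 1 when a library was left out. The block changed no other call among members and listed genes than those given above. Neighbouring members whose per-kilobase ranges did not overlap numbered 2, and 4 with the longest transcript as length. Of 100 member log2 fold changes in alternatives, 81 stayed within the replicate standard deviation, and the signs of Akap7, Akap8, Akap9, Akap10 and Akap12 held in all 10. The filters change the genes tested, but the cause of these differences was not tested.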

Other observations

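A few annotated loci lie within or across the member genes, and none of those tested was called by edgeR, while DESeq2 called Cyp51 higher. Cyp51, a sterol demethylase of cholesterol synthesis, overlaps the opposite strand of Akap9 with 1253 shared exon bases, and its counts were 24.6% of those of Akap9. Cyp51 had 30.9 and 29.9 CPM in NSD and 35.1 and 37.8 CPM in SD, a log2 fold change of 0.26 ± 0.0739 (adjusted p = 0.0962, edgeR, and 0.0199 with the replicate block, where its fold change stayed under 1.2). Without knowing that counting used strand, reads of Akap9 and Cyp51 in the shared bases cannot be told apart. Akap7 shared 47 exon bases with Gm40617, whose counts were 0.214% of those of Akap7. The other 8 overlapping loci, of which 4 lie in introns of Akap13, shared no exon bases with a member and had at most 0.708% of its counts.

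For the other marker lists the median log2 fold change between SD and NSD changed sign when single libraries were left out. It was 0.061 for 12 astrocyte markers (-0.037 without NSD replicate 2 and 0.197 without NSD replicate 1) and -0.035 for 12 oligodendrocyte markers (-0.167 and 0.093 without the same libraries). It was -0.058 for 12 microglia markers (-0.301 without SD replicate 1 and 0.164 without NSD replicate 1) and -0.04 for 10 interneuron markers (-0.106 without SD replicate 1 and 0.032 without SD replicate 2). It was -0.021 for 8 dentate granule markers (-0.133 without NSD replicate 2 and 0.162 without NSD replicate 1) and 0.072 for the 7 of 8 CA3 and CA2 markers tested (-0.056 without SD replicate 1 and 0.157 without NSD replicate 1). Across these lists edgeR called the dentate marker Pdzd2 higher and no other gene. Among the genes the block called were Gjb6 and Pdzd2, higher, and Opalin, Sst, Lct, Rgs14 and Map3k15, lower. Among those DESeq2 called were 1 astrocyte and 1 dentate marker, higher, and 1 oligodendrocyte and 1 dentate marker, lower.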
